A study of Mus musculus with 9 samples.

Results

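The transcripts of 6 membrane proteins that carry water, ions and small molecules within the lens, or hold its fiber cells together, were followed in mouse lenses with and without *Atf4*. They are the aquaporins *Mip*, *Aqp1* and *Aqp5*, the connexins *Gja1* and *Gja3*, and *Lim2*. They were taken by symbol from the 55416 Ensembl genes counted in each library, and 5 of the 6 had a count and were tested. The 9 RNAseq libraries came from E16.5 embryos, 1 library for the single pair of lenses of each embryo, with both sexes used. The 4 *Atf4* null embryos were homozygous for the Atf4tm1Tow allele. The 5 wildtype embryos were their littermates from intercrosses of heterozygotes, so both groups carried a mixed C57Bl/6/129 background. Embryos were not genotyped for the *Bfsp2* deletion that 129 mice can carry. The null allele was present in every cell of the embryo and not in the lens alone. The comparison asks whether the channel transcripts of lens fiber cells and those of the lens epithelium differed between the genotypes.

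The lens has no blood vessels of its own, and its cells depend on an internal flow of water and ions. The epithelium faces the aqueous humor and uses the water channel encoded by *Aqp1* and gap junctions built from the *Gja1* protein. Elongating fiber cells replace these with the abundant water channel and adhesion protein encoded by *Mip*, with gap junctions that contain the *Gja3* protein, and with the junctional protein encoded by *Lim2*, while the *Aqp5* protein can be moved into fiber cell membranes.

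Gene counts ran from 7440807 to 8906996 per library. *Atf4* itself lay between 119 and 155 CPM in wildtype and between 0.582 and 10.6 CPM in *Atf4* null libraries. CPM are counts scaled to the library's total with edgeR's TMM factors. The skeletal muscle list took 0.797% of the counts in wildtype replicate 5 and at most 0.0123% in the other libraries, and the mesenchyme list 1.49% there. In the other libraries the mesenchyme list took 0.0188% to 0.056% of the counts in null and 0.00323% to 0.00825% in wildtype, with no overlap. Of its genes then tested, 6 of 6 passed as higher in null lenses. So did 2 of 4 of the pigment cell list, against 488 of all 14493 genes tested (edgeR without wildtype replicate 5). The part of these cells in the channel values was not tested. The fold changes of the 5 tested genes and of *Aqp4*, *Gje1*, *Bfsp1*, *Calm3*, *Tjp1* and *Cav1* are also given without it, except where a gene was not tested then. Defining genes of the fiber cells (7 of 7) and the lens epithelium (6 of 6) had counts, as the lens label states.

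Divided by exon length as FPKM, the wildtype levels followed the order *Mip*, *Gja3*, *Gja1*, *Aqp1* and *Aqp5*. The means were 1410 ± 324 FPKM for *Mip*, 186 ± 43.9 for *Gja3*, 27.7 ± 5.78 for *Gja1*, 4.28 ± 2.2 for *Aqp1* and 0.216 ± 0.252 for *Aqp5* (SD, n = 5). Without wildtype replicate 5 they were 1551, 206, 28.8, 3.47 and 0.113 FPKM. No neighbors in this order overlapped among the wildtype libraries. The order of the means was the same in *Atf4* null lenses, at 1391 ± 481, 170 ± 64.0, 17.9 ± 2.97, 1.80 ± 0.174 and 0.754 ± 0.791 FPKM (SD, n = 4). There, however, the *Aqp5* level of *Atf4* null replicate 4, at 1.87 FPKM, lay among the *Aqp1* levels of 1.61 to 1.98 FPKM.

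**Figure D1:**
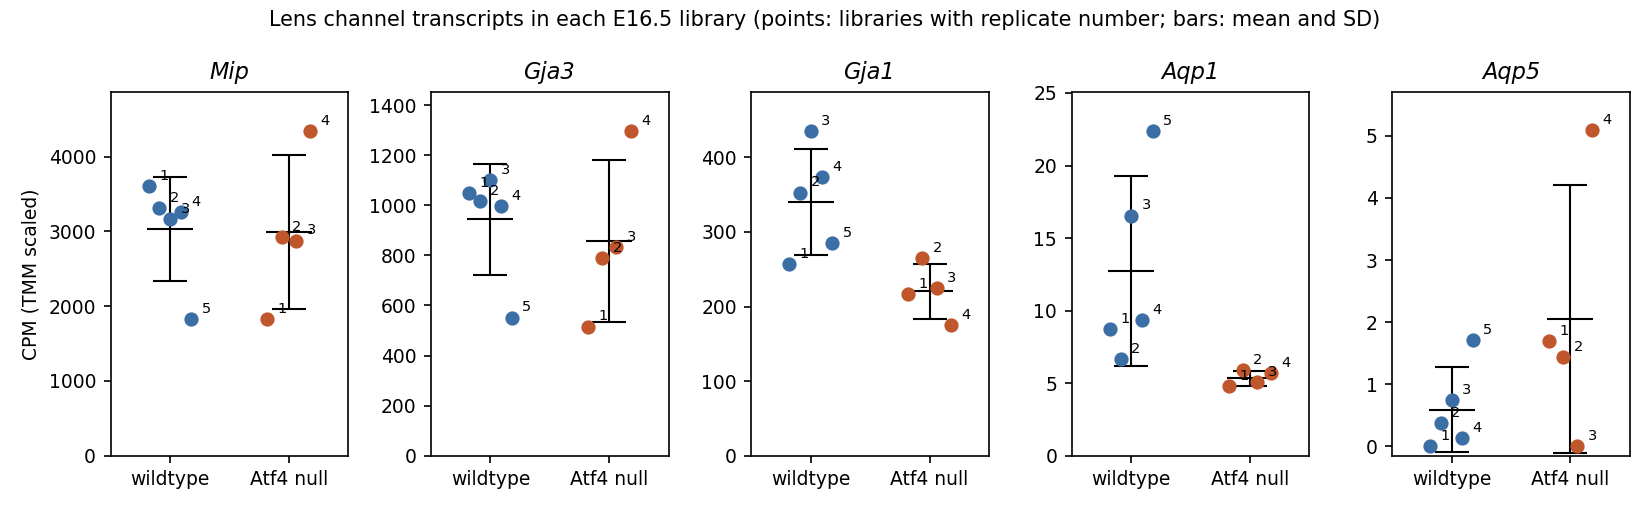
CPM of the 5 tested channel genes (vertical axes, 1 scale per gene) in the 5 wildtype and 4 *Atf4* null libraries, with the replicate number beside each point and bars for the mean and SD. The genotypes overlap for *Mip*, *Gja3*, *Gja1* and *Aqp5* and are apart for *Aqp1*. In wildtype, replicate 5 is the lowest point for *Mip* and *Gja3* and the highest for *Aqp1* and *Aqp5*.

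Of the 5 genes tested, 1 passed the test, *Gja1*, which fell in *Atf4* null lenses. Over all 14903 genes tested, 5.90% passed in either direction, 3.67% as lower and 2.23% as higher (edgeR's quasi-likelihood test, adjusted p below 0.05). The edgeR calls of each list with all libraries are to be read beside these shares. At an unadjusted p below 0.05, 2 of the 5 passed, *Gja1* and *Aqp1*, against 19.6% of all genes tested. *Aqp1* was the 1 member whose genotypes did not overlap, which held for 10.2% of all genes tested, but its adjusted p was above the threshold. The fiber cell channels *Mip* and *Gja3* had intervals on both sides of 0. These are whole lenses, so fewer cells of a type and less RNA per cell cannot be told apart.

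*Mip* (ENSMUSG00000025389, GRCm39 chr10:128061700-128067681, plus strand) encodes the most abundant membrane protein of fiber cells. Its CPM were 1822, 2927, 2878 and 4343 in *Atf4* null replicates 1 to 4 and 3608, 3308, 3166, 3261 and 1823 in wildtype replicates 1 to 5. The lowest null and the lowest wildtype library were almost equal, the highest value was that of a null library, and the genotypes overlapped. The log2 fold change, *Atf4* null minus wildtype, was -0.02 (SE 0.23, 95% interval -0.52 to 0.48, adjusted p = 0.977, edgeR). The exact permutation test of the genotype labels gave p = 0.849, two-sided, where the smallest p it allows is 0.00794. Without wildtype replicate 5 the log2 fold change was -0.15 (adjusted p = 0.72). The interval with all libraries spans 0.699 to 1.39 times the wildtype level.

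*Gja3* (ENSMUSG00000048582, chr14:57271916-57295702, minus strand), the gap junction subunit of fiber cells, followed the same libraries. It stood at 516, 789, 833 and 1297 CPM in the null replicates and at 1050, 1017, 1100, 998 and 552 CPM in the wildtype replicates. Again *Atf4* null replicates 1 and 4 were the lowest and the highest of their genotype, wildtype replicate 5 was far below its group, and the genotypes overlapped. The log2 fold change was -0.14 (SE 0.24, 95% interval -0.66 to 0.39, adjusted p = 0.834 by edgeR, p = 0.563 by the two-sided exact permutation test) and -0.27 without wildtype replicate 5 (adjusted p = 0.484). Over the 9 libraries, which differ in fiber cell transcripts as a whole, the log2 CPM of *Mip* and *Gja3* had a Pearson r of 0.975, and 0.985 after each genotype was centred on its mean. The *Mip* level was 7.88 to 8.72 times the *Gja3* level in null and 6.77 to 8.09 times in wildtype libraries, in FPKM.

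The sequence before *Mip* is shown because *Mip* is the most abundant of these transcripts, with a fold change near 0 beside called falls of other fiber cell transcripts. It is the 250 bases before the RefSeq start, from a RefSeq table of GRCm38.p6, found once in GRCm39 at chr10:128061429-128061678 on the plus strand. It was searched on both strands for the ATF4 element TGATGCAA, the AP-1 element TGAGTCA and the TATA box TATAAA, and these letters are not in this window, so it has no capitals.
Mip: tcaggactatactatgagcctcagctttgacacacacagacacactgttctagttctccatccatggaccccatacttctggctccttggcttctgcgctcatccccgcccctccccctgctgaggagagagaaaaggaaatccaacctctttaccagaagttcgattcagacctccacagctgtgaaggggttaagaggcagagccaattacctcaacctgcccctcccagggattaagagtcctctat
Over the 32851 promoter windows of the same length in the table, 0.791% held TGATGCAA, 4.46% TGAGTCA and 12.4% TATAAA. The 6 genes had 7 windows, 2 of them of *Gja3*, and 0 of the 7 held TGATGCAA. The complement of TATAAA lay 163 to 158 bases before 1 of the *Gja3* starts.

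Of the 7 genes of the lens fiber list, 4 fell in *Atf4* null lenses, *Bfsp1*, *Crygs*, *Dnase2b* and *Birc7* (edgeR). *Mip* was then set against these and other fiber cell transcripts in the same library. These genes were chosen after their values had been seen, and the ratios are given as a description with no test. The share of all genes whose ratio to *Mip* does not overlap was not computed. With *Mip* at a log2 fold change of -0.02, each ratio largely repeats the other gene's own change. *Bfsp2*, *Cryba1* and *Hsf4* were not called themselves (adjusted p = 0.344, 0.189 and 0.442, edgeR). *Bfsp1* encodes filensin, a beaded filament protein that binds the *Mip* protein. The *Mip* level divided by the *Bfsp1* level, in FPKM, was 1.25, 1.3, 1.43 and 1.18 in the null and 0.492, 0.533, 0.445, 0.477 and 0.461 in the wildtype replicates, with no overlap and little spread within a genotype. Wildtype replicate 5, low in both transcripts, was not apart in this ratio. *Mip* was also higher in every null than in every wildtype library against *Bfsp2*, which encodes the other beaded filament protein, with ratios of 1.06 to 1.31 and 0.786 to 0.98. The log2 ratio of *Mip* to *Dnase2b*, the nuclease that degrades fiber cell DNA, was 1.88 higher in null lenses, and that to *Birc7* 1.82 higher. It was 1.2 higher against the crystallin *Crygs*, 0.55 higher against the crystallin *Cryba1* and 0.39 higher against *Hsf4*, a transcription factor of the lens, each with no overlap. Against *Ezr*, which encodes ezrin, a linker of membrane proteins to actin, the difference was -0.03 and the genotypes overlapped. Against *Tjp1*, which encodes a scaffold that connexins bind, it was -0.76 with no overlap.

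**Figure D2:**
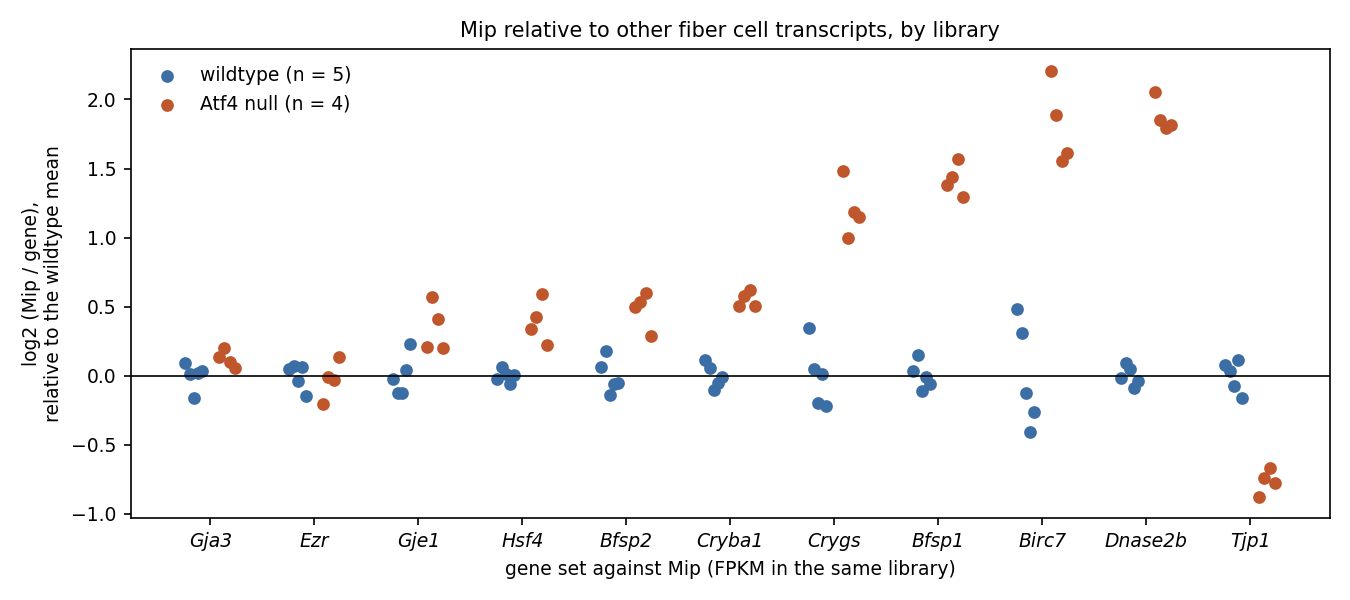
Log2 ratio of *Mip* to 11 genes in each library (vertical axis, FPKM in the same library, set to 0 at the wildtype mean of each gene), for 5 wildtype and 4 *Atf4* null libraries. Against *Gja3*, *Ezr* and *Gje1* the genotypes overlap. Against *Hsf4*, *Bfsp2*, *Cryba1*, *Crygs*, *Bfsp1*, *Birc7* and *Dnase2b* every null library lies above every wildtype one, by 0.39 to 1.88 on average, and against *Tjp1* below. The 11 genes were chosen after their values had been seen, and no share over all genes was computed.

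*Lim2* (ENSMUSG00000118560, chr7:43079492-43085420, plus strand), whose protein is a junctional membrane protein of fiber cells, had 0 counts in each of the 9 libraries. This 0 cannot be read as a measure of its transcript. In GENCODE vM39, 899 of its 904 exon bases also lie in exons of a readthrough gene on the same strand, *Gm52993* (ENSMUSG00000093639, chr7:43077094-43085415), which was counted in the same files. By default HTSeq does not assign a read that lies over more than 1 gene, so by these models only 5 bases of *Lim2* could give a count. The authors counted with an Ensembl annotation whose exon models were not compared here, and their HTSeq overlap setting is not stated. The first 4 exons, of 89, 181, 150 and 135 bases, are shared whole, and the fifth shares 344 of its 349 bases. The junction at the end of exon 4 shows how the gene models differ. The first 15 bases below end that exon of *Lim2* and are shared, and the 15 in capitals follow it, in the *Lim2* intron and in an exon of the readthrough gene (GRCm39 chr7:43084850-43084879, plus strand).
Lim2 exon 4 end: tgaccttctttgcagGTACTGAGGCAGAGG
Another gene counted in the files, *Gm38999*, which was listed at 0, takes up 558 more of the 2180 exon bases of *Gm52993*. By the GENCODE models, reads over the remaining 723 could still be counted for it. They gave 35, 32, 29 and 55 counts in the null and 65, 67, 55, 34 and 27 in the wildtype replicates, with a log2 fold change of -0.41 (adjusted p = 0.697, edgeR), and the genotypes overlapped. Reads left out as lying over more than 1 gene numbered 300539 to 332620 in null and 328889 to 375342 in wildtype libraries, and those of *Lim2* are not separate among them. No statement on *Lim2* in either genotype can be made from these counts.

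**Figure D3:**
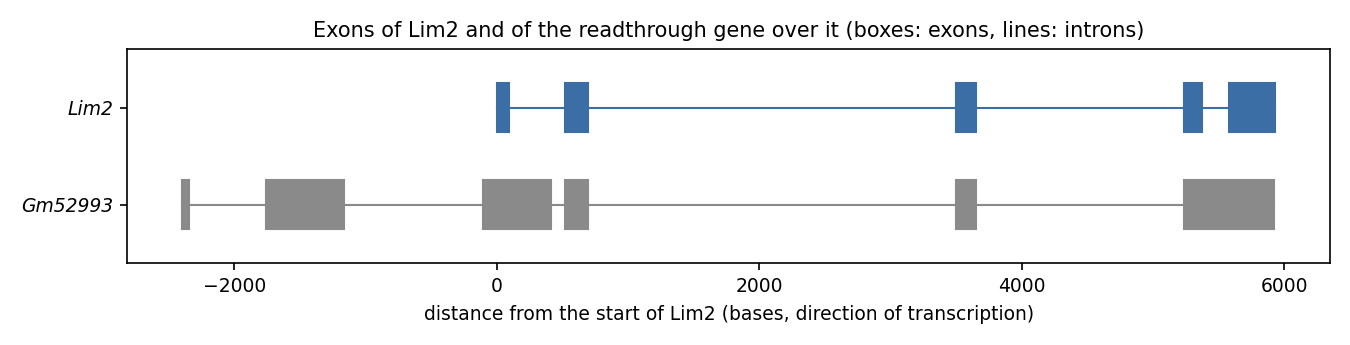
Exons (boxes) and introns (lines) of *Lim2* and of the readthrough gene *Gm52993* over it, by distance in bases from the start of *Lim2* (horizontal axis). In GENCODE vM39, all but 5 of the 904 exon bases of *Lim2* lie under an exon of *Gm52993*.

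*Gja1* (ENSMUSG00000050953, chr10:56253241-56278609, plus strand), the gap junction subunit of the lens epithelium, fell in *Atf4* null lenses. Its CPM were 217, 265, 225 and 175 in the null and 257, 353, 435, 373 and 285 in the wildtype replicates. The genotypes met at 1 point only, with *Atf4* null replicate 2 just above wildtype replicate 1. The fall of 0.63 on the log2 scale (SE 0.17, 95% interval -0.98 to -0.27) left 0.647 of the wildtype level, with an adjusted p = 0.0402 by edgeR and p = 0.0238 by the two-sided exact permutation test. The call rests close to the threshold, since adjusted p-values ran from 0.0117 to 0.103 when each library was left out in turn and passed in 3 of 9 cases. It was lost without *Atf4* null replicate 1, 3 or 4 and without wildtype replicate 2, 3 or 4, with adjusted p-values of 0.0728, 0.0955, 0.0883, 0.0862, 0.103 and 0.0948 in that order (edgeR). Without wildtype replicate 5 the log2 fold change was -0.68 (adjusted p = 0.0117, edgeR). Scaled by library size alone it was -0.49 (adjusted p = 0.11, edgeR).

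The 30 bases before the RefSeq start of *Gja1* are shown because they hold the 1 match to the AP-1 element among these windows, TGAGTCA in capitals, 19 to 13 bases before that start. They lie at GRCm39 chr10:56253366-56253395 on the plus strand, within the first exon of some *Gja1* transcripts in GENCODE.
Gja1: ctccttccagtTGAGTCAgtggcttgaaac

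The lens epithelium list moved with *Gja1*. Its 6 genes took 0.0741% to 0.101% of the counts in null and 0.105% to 0.126% in wildtype libraries, all 6 were measured above 0, and 3 of 6 were lower by edgeR. Their part in the fall of *Gja1* was not tested. The ratio of *Gja1* to each of the 6 was higher in null lenses for 3, with no overlap, and lower for 3, with overlap. The first 3 were *Foxe3*, a transcription factor that the epithelium needs, *Cdh1*, the epithelial cadherin, and *Slc38a3*, an amino acid transporter, for which the log2 ratio was 0.69 higher. The *Gja1* level divided by the *Foxe3* level was 0.453 to 1.72 in null and 0.114 to 0.3 in wildtype libraries, and divided by the *Cdh1* level 4.72 to 13.6 and 0.492 to 0.826, in FPKM. Against *Pax6*, a transcription factor of the eye, the ratio of *Gja1* was 0.527 to 0.658 in null and 0.634 to 1.03 in wildtype libraries, and the genotypes overlapped. The log2 ratio to *Itgb1*, an integrin, differed by -0.43, and by -0.28 without *Atf4* null replicate 4. That to *Pdpn*, podoplanin, differed by -0.16, and by -0.3 to -0.02 over the libraries left out, with those values without *Atf4* null replicate 2 and wildtype replicate 4. These pairs too were chosen after the values had been seen and were not tested, and no share over all genes was computed. Ciliary epithelium and mesenchyme also make *Gja1*. The retina and ciliary body list took 0.027% to 0.0785% of the counts in null and 0.0159% to 0.0253% in wildtype libraries. The mesenchyme list took 0.0188% to 0.056% in null and 0.00323% to 0.00825% in wildtype replicates 1 to 4, but 1.49% in wildtype replicate 5. The part of these cells in the *Gja1* values was not tested.

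*Aqp1* (ENSMUSG00000004655, chr6:55313068-55325540, plus strand), the water channel of the lens epithelium, red blood cells and many vessels, was counted 48, 49, 46 and 39 times in the null and 68, 54, 134, 74 and 209 times in the wildtype replicates. The CPM were 4.78, 5.88, 5.04 and 5.68 in null and 8.73, 6.66, 16.6, 9.37 and 22.4 in wildtype. Every null library lay below every wildtype one, and the null values were close together while the wildtype values spread, led by replicates 3 and 5. The log2 fold change was -1.25 (SE 0.37, 95% interval -2.06 to -0.45), with an adjusted p = 0.0699 by edgeR's quasi-likelihood test and p = 0.0159 by the two-sided exact permutation test. It passed in edgeR's exactTest (-1.25, adjusted p = 0.0371) and in DESeq2 (-1.26, adjusted p = 0.0206). Without wildtype replicate 5 it was -0.95 (adjusted p = 0.134, edgeR), and without wildtype replicate 2 it was -1.42 (adjusted p = 0.0498, edgeR).

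The summed shares of the red blood cell and vascular endothelium lists, whose cells also make *Aqp1*, overlapped between the genotypes. The red blood cell list, with all 7 genes above 0, took 0.021% to 0.0262% of the counts in null and 0.0214% to 0.0698% in wildtype libraries, highest in wildtype replicate 3, and 1 of 6 genes tested, *Hba-a1*, was lower by edgeR's quasi-likelihood test, 3 by exactTest and 4 by DESeq2, with 5 at an unadjusted p below 0.05. The vascular endothelium list, with all 5 genes above 0, took 0.0134% to 0.0344% in null and 0.0251% to 0.0504% in wildtype libraries, highest in wildtype replicate 5, and 1 of 5, *Egfl7*, was lower by the quasi-likelihood test and by exactTest and 2 by DESeq2, with 3 at an unadjusted p below 0.05 and all 5 on the lower side. When wildtype replicate 5 was left out, 2 of the red blood cell genes passed and *Egfl7* no longer did (adjusted p = 0.0618, edgeR). The log2 ratio of *Aqp1* to each of the 11 tested genes of both lists was lower in null lenses for 10, or for 7 without wildtype replicate 5, and overlapped between the genotypes for all 11 with all libraries. The differences ran from -0.82 against *Tie1*, an endothelial receptor, and -0.75 against *Kdr*, the receptor for a vascular growth factor, to 0.01 against *Hba-a1*, a hemoglobin chain. These 3 were -0.7, -0.61 and 0.23 without wildtype replicate 5. The ciliary epithelium makes *Aqp1* too. The retina and ciliary body list took 0.027% to 0.0785% of the counts in null and 0.0159% to 0.0253% in wildtype libraries, with no overlap. The part of all these cells in the *Aqp1* values was not tested.

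*Aqp5* (ENSMUSG00000044217, chr15:99488532-99492710, plus strand), a water channel of fiber cells and of secretory and corneal epithelium, was near the limit of counting. It had 17, 12, 0 and 35 counts in the null and 0, 3, 6, 1 and 16 in the wildtype replicates, or 1.69, 1.44, 0 and 5.1 CPM and 0, 0.37, 0.741, 0.127 and 1.71 CPM. Each genotype had a library with no count, and the genotypes overlapped. The log2 fold change of 1.74 had a 95% interval of -0.72 to 4.2 (SE 1.14, adjusted p = 0.453 by edgeR, p = 0.246 by the two-sided exact permutation test), and it was 0.79 without *Atf4* null replicate 4 (adjusted p = 0.82, edgeR). Without wildtype replicate 5, its counts no longer passed the filter and it was not tested. No difference in *Aqp5* was detected on these few counts, which also spread between the libraries of each genotype. The list of the cornea and surface ectoderm took 0.000185% to 0.00054% of the counts in null and 1.19e-05% to 0.00228% in wildtype libraries, or up to 0.000238% without wildtype replicate 5, with all 5 genes above 0 and 0 of 1 tested called by edgeR's quasi-likelihood test, exactTest or DESeq2 and 0 at an unadjusted p below 0.05. The part of these cells in the *Aqp5* values was not tested.

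The fiber cell channels were set against the epithelial channels as the mean log2 FPKM of *Mip* and *Gja3* minus that of *Aqp1* and *Gja1*. This difference was 5.74, 6.1, 6.35 and 7.07 in the null and 6.21, 6.08, 5.32, 5.78 and 4.51 in the wildtype replicates. The highest was a null and the lowest a wildtype library, and the genotypes overlapped. The means were 6.32 ± 0.56 (SD, n = 4) and 5.58 ± 0.69 (SD, n = 5), a difference of 0.74, which was 0.47 without wildtype replicate 5 and 0.49 without *Atf4* null replicate 4. For *Mip* minus *Aqp1* the difference between the genotypes was 1.03, and 0.62 without wildtype replicate 5. For *Gja3* minus *Gja1* it was 0.45, but 0.12 without *Atf4* null replicate 4 and 0.32 without wildtype replicate 5. The genotypes overlapped in each case.

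**Figure D4:**
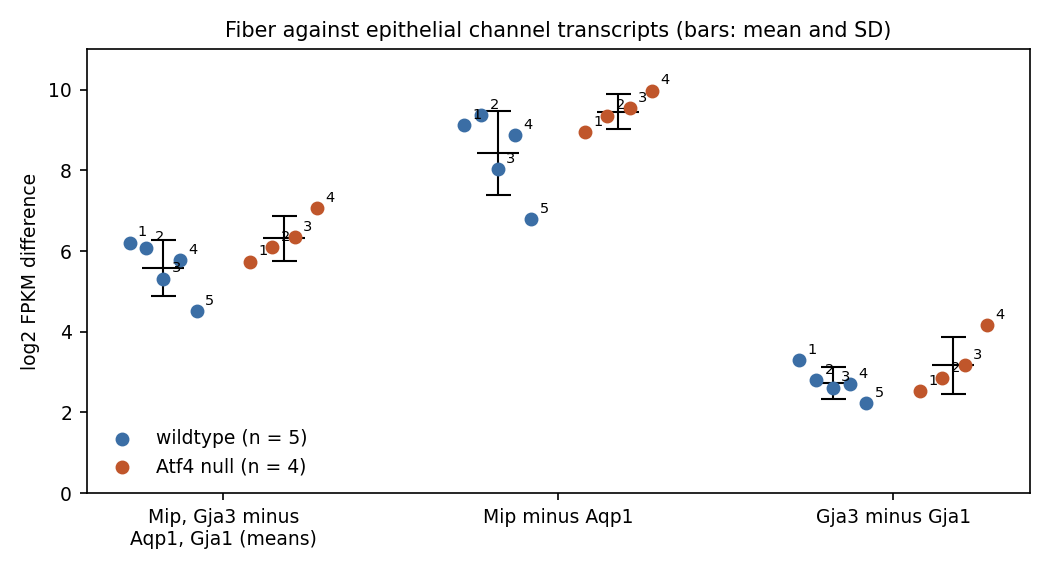
Log2 FPKM difference (vertical axis) of fiber cell minus epithelial channel transcripts in 5 wildtype and 4 *Atf4* null libraries, for the means of both genes, for *Mip* minus *Aqp1* and for *Gja3* minus *Gja1*. Points are libraries with their replicate number and bars the mean and SD. The genotypes overlap in each comparison, and wildtype replicate 5 is the lowest library in all of them.

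The other aquaporins and connexins listed were mostly rare or uncounted in these lenses, except *Gje1* and *Gjc1*. Of 9 other aquaporins, 6 had a count and 2 were tested, of which 0 passed edgeR's quasi-likelihood test, 1 had an unadjusted p below 0.05 and 1 passed by exactTest and DESeq2. That gene, *Aqp4*, the water channel of glia, stood at 2.09, 1.68, 4.28 and 0.728 CPM in the null and 10.4, 5.8, 5.31, 8.73 and 4.39 CPM in the wildtype replicates, with no overlap and a log2 fold change of -1.64 (adjusted p = 0.0909, edgeR), which was -1.76 without wildtype replicate 5 (adjusted p = 0.0547). The retina and ciliary body list, whose tissue holds glia, moved the other way, from 0.0159% to 0.0253% of the counts in wildtype to 0.027% to 0.0785% in null libraries, with all 8 genes above 0 and 3 of 8 higher by edgeR. Its part in these values was not tested.

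Of 17 other connexins listed, 13 had a count and 5 were tested, and 0 passed by edgeR's quasi-likelihood test, exactTest or DESeq2, with 0 at an unadjusted p below 0.05. The most abundant of them was *Gje1*, a connexin of the lens, at 80.7, 101, 111 and 193 CPM in the null and 188, 184, 177, 162 and 79.4 CPM in the wildtype replicates. Its lowest library of each genotype was also that of *Mip* and *Gja3*, with a log2 fold change of -0.38 (95% interval -0.96 to 0.19, adjusted p = 0.488, edgeR) and overlap, and of -0.55 without wildtype replicate 5 (adjusted p = 0.121). *Gjc1* was at 0.07, and *Gja4* at -0.73 (-0.56 without wildtype replicate 5) on low counts. *Gjb2* had at most 19 counts in a library. *Gja5* stood at 11.1 CPM in wildtype replicate 5 and at 0 to 2.88 CPM in the other 8 libraries, so no direction is given, and it is uncertain, since its annotated span holds another gene on the opposite strand. Of 3 pannexins, which form channels of single membranes, 2 were tested and 0 passed by any of these tools, with 0 at an unadjusted p below 0.05.

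Among the partners of these channels, 2 of the 9 genes tested fell and 1 rose (edgeR), with a median log2 fold change of -0.17 against 0.001 over all genes tested. *Bfsp1* fell from 8147, 6896, 7913, 7599 and 4397 CPM in the wildtype to 1620, 2499, 2240 and 4100 CPM in the null replicates, with no overlap (log2 fold change -1.42, SE 0.25, adjusted p = 0.00417, edgeR). *Calm3*, a gene for calmodulin, which binds and closes *Mip* and connexin channels, fell with a log2 fold change of -0.45 (adjusted p = 0.0352, edgeR), while *Calm2* stood at -0.17 without passing. *Tjp1* rose from a wildtype mean of 939 ± 175 CPM (SD, n = 5) to 1582 ± 537 CPM (SD, n = 4) with overlap (log2 fold change 0.75, adjusted p = 0.0499, edgeR). The calls of *Calm3* and *Tjp1* were each kept in 8 of 17 alternatives and that of *Bfsp1* in 17. By exactTest *Calm3* did not pass (adjusted p = 0.0611), and DESeq2 also called *Cav1*, which encodes the caveola protein caveolin, at -1.63 by edgeR (adjusted p = 0.14) and -0.89 without wildtype replicate 5 (adjusted p = 0.326). Without that library *Bfsp1* was at -1.54, *Calm3* at -0.46 and *Tjp1* at 0.65, and all 3 passed (edgeR). The call of *Calm3* was lost without null replicate 3 or 4 or wildtype replicate 1, 2, 3 or 4, and that of *Tjp1* without null replicate 2, 3 or 4 or wildtype replicate 1, 2, 3 or 4. *Bfsp2* was at -0.47 (adjusted p = 0.344) and *Ezr* at -0.01 (adjusted p = 0.982, edgeR).

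Of 9 genes tested for the sensing and control of cell volume, 0 passed edgeR's quasi-likelihood test or exactTest and 1 passed DESeq2, with 2 at an unadjusted p below 0.05. These were *Oxsr1* (log2 fold change 0.53, adjusted p = 0.0606, edgeR, no overlap) and *Stk39* (0.43, adjusted p = 0.201, edgeR, with overlap), both kinases that act on ion cotransporters. *Slc12a2*, a cotransporter of that kind, was at -0.03. The volume list took 0.124% to 0.129% of the counts, without TMM factors, in null and 0.101% to 0.109% in wildtype libraries, with no overlap. Of its tested genes 5 were on the higher and 4 on the lower side. *Trpv4*, a cation channel that responds to swelling, stood at 4.39 CPM in wildtype replicate 5, 0 to 1.27 CPM in the other wildtype and 0.72 to 1.64 CPM in the null libraries, on few counts. Of the 4 genes of the PMP22 family, to which the *Lim2* protein is related, 0 passed by any of the 3 tools, with 0 at an unadjusted p below 0.05.

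**Figure D5:**
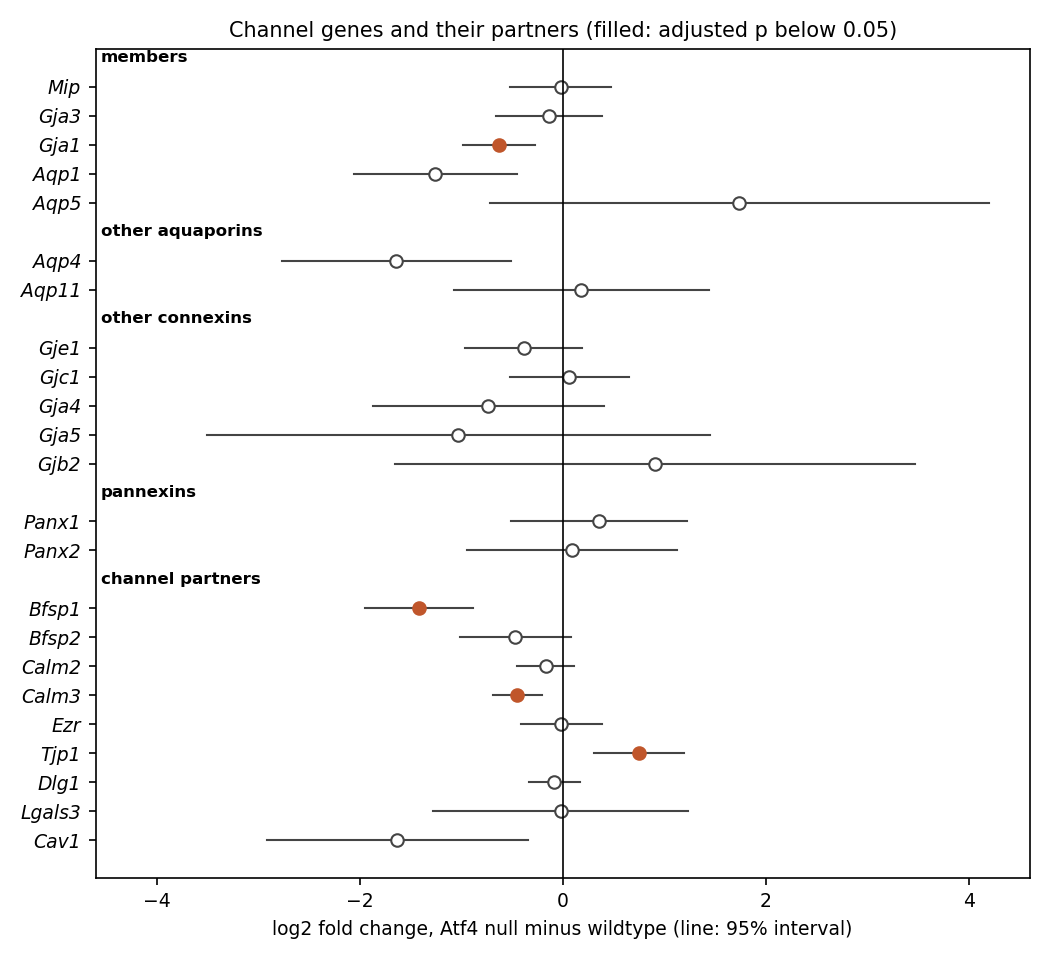
Log2 fold change of *Atf4* null minus wildtype (horizontal axis, point) with its 95% interval (line) for the 5 tested channel genes, other aquaporins and connexins, pannexins and channel partners, from edgeR. Filled points passed an adjusted p of 0.05, and these are *Gja1*, *Bfsp1*, *Calm3* and *Tjp1*. *Aqp1*, *Aqp4* and *Cav1* have intervals below 0 but are open.

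The genes whose log2 CPM most resembled each channel gene over the 9 libraries were taken by Pearson r, 3 for each, from genes with a mean of at least 50 counts. The 2 genes of a pair are read from the same libraries, so differences between libraries in genotype, fiber cell transcripts and depth bear on both. *Mip* was most like *Ezr* (r 0.995), *Dock5* (r 0.992) and *Vit* (r 0.991), and their log2 fold changes of -0.01, -0.07 and -0.07 stood beside -0.02 for *Mip*. *Gja3* was most like *Rnf187* (r 0.987), the crystallin *Crybb1* (r 0.986) and *Dock5* (r 0.985). *Gja1* was most like *Fam162a* (r 0.971), *Nkd2* (r 0.969) and *Rn7sk* (r 0.964). *Aqp1* was most like *Eda* (r 0.957), *Creb3l2* (r 0.957) and *Ppfia4* (r 0.947). *Aqp5*, on few counts, was most like *Arhgap42* (r 0.956), *Igf2os* (r 0.926) and *Slc27a4* (r 0.919). *Aqp1* and *Gja1*, the epithelial pair, had an r of 0.593 over the 9 libraries and of 0.0287 after each genotype was centred.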

How the data were processed

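RNA from single pairs of E16.5 lenses was sequenced after a stranded total RNA preparation. The authors trimmed reads with Trim Galore, removed ribosomal RN45S reads with HISAT2, mapped the others to GRCm39 and deposited HTSeq counts per Ensembl gene, without normalization. Tool versions and the strand setting of the counting are not given in the sources used here. Genes on the opposite strand that are absent from the count files share exon bases with 3 members. *Gm63543* shares 51 with *Gja3*, *Gm68148* 143 with *Gja1*, and *Gm34765* 374 of the 2730 of *Aqp5*. If strand was not used, their reads could have been counted for these members, which was not tested. The summary entries, 44.6% to 47.7% of reads, were left out. Symbols, positions and exon lengths came from GENCODE vM39 and not from the Ensembl annotation used for the counting. Chi-square tests of the counts of each of 36 library pairs gave at least 7.7 per degree of freedom, so no library was counted as a repeat. edgeR 4.0.16 in R 4.3.3 was used with filterByExpr, TMM factors, the quasi-likelihood test with genotype alone and Benjamini-Hochberg adjustment over 14903 genes (threshold 0.05). Permutation tests used log2(CPM + 0.5) and ratios log2(FPKM + 0.1). Alternatives were exactTest, DESeq2 1.42.0, other scalings and filters, a robust fit, a replicate block and leaving out each library. The mean for fiber cells was planned with *Lim2*, which had no counts, and uses *Mip* and *Gja3*. The procedure was tested on simulated data. Genes named are the members, genes of the lists, genes over a member and, by r, the 3 genes most like each member. Which list genes are described was chosen after their values were seen. Members and lists were chosen with earlier results of these data known. Wildtype replicate numbers follow the sample titles, which name other wildtype libraries than the counts do, so they are uncertain. Some genes are not reported here. With all libraries, lists for pigment cells (0 of 4 called) and macrophages (0 of 5, with 0 at an unadjusted p below 0.05 by edgeR's quasi-likelihood test for both, and 0 called by exactTest or DESeq2) were also examined, as were mesenchyme (0 of 7, 1 at an unadjusted p below 0.05) and skeletal muscle (0 of 5, 5 at an unadjusted p below 0.05), with 0 called by exactTest or DESeq2, and lens fiber cells (4 of 7 lower).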

Additional observations from a re-analysis of the deposited data

Results flagged for a closer look

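*Mip* in wildtype replicate 5, at 1823 CPM, was far below the other wildtype libraries, which ran from 3166 to 3608 CPM, and the gap was 0.752 of the range of the group. *Gja3* in the same library, at 551.7 CPM, was likewise far below the others, at 997.8 to 1100 CPM, with a gap of 0.813 of the range. Chance gives such a gap in about 1 in 20 groups. This is the library with the high share of muscle and mesenchyme transcripts, and the part of those transcripts in these values was not tested. Its ratio of *Mip* to *Gja3*, 7.77 in FPKM, lay within the 6.77 to 8.09 of the other wildtype libraries.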

How the results depend on the processing

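The direction of *Mip* and *Gja3* is not fixed by these data. *Mip* turned to 0.085 with library size in place of TMM factors, to 0.17 and 0.01 without *Atf4* null replicates 1 and 3, and to 0.05, 0.01 and 0.01 without wildtype replicates 1, 2 and 4, in a range of -0.26 to 0.17 over the libraries left out (adjusted p 0.584 to 0.997, edgeR). *Gja3* turned to 0.053 without *Atf4* null replicate 1, in a range of -0.41 to 0.05. *Aqp1* was lower in all 17 alternatives and passed in 3, exactTest (-1.25), DESeq2 (-1.26) and without wildtype replicate 2, with -1.42 to -0.95 over the libraries left out. *Gja1* was lower in all 17 alternatives and passed in 10. It did not pass with library size alone (-0.49), and leaving out libraries gave -0.73 to -0.53. *Aqp5* was higher in all 14 alternatives that gave a value, from 0.79 to 2.16, and passed in none (edgeR quasi-likelihood, exactTest or DESeq2), and the filter of at least 10 counts in every library, the replicate block and the fit without wildtype replicate 5 left it out. The difference of fiber cell and epithelial channels was 0.47 to 0.93 in 14 alternatives, and 0.77 with *Lim2* kept at its count of 0, an alternative chosen after seeing the data. Over all genes, 1397 passed by DESeq2 in place of 880, and 527 to 1207 with a library left out. Scaling by size alone moved the median log2 fold change from 0.001 to 0.125 and the share of higher calls from 37.8% to 64.3%.

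The replicate numbers did not pair the samples, with correlations of deviations of -0.22, -0.06, -0.08 and 0.01 for replicates 1 to 4. With the replicate block, which leaves out wildtype replicate 5, 873 genes passed. *Mip* was then at -0.22, *Gja3* at -0.35, *Aqp1* at -0.87 (adjusted p = 0.259), *Gja1* at -0.67 (adjusted p = 0.0243), *Bfsp1* at -1.62 and *Calm3* at -0.46, and *Tjp1*, at 0.58 (adjusted p = 0.0891, edgeR), did not pass. Nothing says that libraries of a genotype share a litter or a day, and the causes of the changes above were not tested. *Aqp5* had at most 35 counts in a library and *Aqp1* at most 209, and the wildtype counts of *Aqp1*, 54 to 209, also spread between libraries. The ratios with a library left out, and the values of *Aqp4*, *Gje1* and *Cav1* without wildtype replicate 5, were added after seeing the data.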
